A study of Mus musculus with 12 samples.

Results

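The genes described are 38 genes of the extracellular matrix and of hepatic stellate cells, taken by name from a list of collagens, matrix proteins, matrix remodelling enzymes and stellate cell or myofibroblast genes. The rule uses names and no measured value, although earlier results of these data were known when the list was drawn up. All 38 were found by gene symbol among the 54839 features of the deposited table, and they fall into 7 groups by role: 5 fibrillar collagens, 8 other collagens, 9 proteoglycans, glycoproteins and elastic fibre proteins, 3 crosslinking enzymes, 6 proteases and protease inhibitors, 4 stellate cell and myofibroblast genes, and 3 genes for receptors and a ligand.

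The extracellular matrix of the liver is a thin scaffold in the space between hepatocytes and sinusoidal endothelium, and in fibrosis it is replaced by fibrillar collagen. Hepatic stellate cells, which store vitamin A when quiescent, are the main source of this collagen: after injury they respond to TGF-beta and PDGF, become contractile myofibroblasts and secrete collagens, crosslinking enzymes and inhibitors of matrix-degrading proteases. Hepatocytes secrete fibronectin into plasma and make collagen XVIII, but are not regarded as a large source of fibrillar collagen.

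The libraries were bulk RNA-seq of hepatocytes from male p16-Tom mice on a C57BL/6 background, heterozygous for a p16-CreERT2 driver and a Cre-dependent tdTomato reporter at the R26 locus, so that tdTomato (Tom) marks cells in which the p16Ink4a-driven Cre was active when tamoxifen was given at 80 mg/kg. Every group carried both alleles. The mice received corn oil or CCl4, a hepatotoxic solvent that injures hepatocytes near the central vein, at 1 mL/kg over 4 weeks, and Tom- and Tom+ cells made 4 groups (Tom- oil, Tom+ oil, Tom- CCl4 and Tom+ CCl4) of 3 libraries each. Cells were obtained by collagenase perfusion, pelleted by repeated low-speed spins and sorted as DAPI-negative cells, with no antibody against another liver cell type named in the methods. The mouse's age is not given in the sources used here, nor is it said whether Tom- and Tom+ libraries of a number came from the same mouse, so that p-values measure the spread between these libraries.

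Total counts were between 37568584 and 75331424 per library, and 3 counts, the smallest level taken as measurable, corresponded to 0.0369 to 0.0829 CPM (counts scaled to library size with TMM factors). Among whole values from 1 to 49, between 64.7% and 69.7% were even, so counts are not independent fragments and this limit covers counting error only. The reporter was at 120 to 263 CPM in the Tom- CCl4 libraries and at 1316 to 1369 CPM in the Tom+ CCl4 libraries. In oil it went against the label of the library labelled Tom- oil replicate 1 (1794 CPM) and of the library labelled Tom+ oil replicate 2 (135 CPM). The counts of calls that use oil libraries are therefore given with and without these 2 libraries, and CCl4 was also compared with oil on sums of the same-numbered Tom- and Tom+ libraries, which use the 6 oil libraries whatever their fraction.

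All 18 hepatocyte markers examined passed the expression filter, and their summed level in TPM (counts divided by gene length and scaled to a common total) was 152131 to 196643 in the 12 libraries, led by Alb, Apoa2 and Hpx. Markers of other liver cells were at traces beside this. The 15 endothelial markers summed to between 73.6 and 203 TPM, the 16 Kupffer cell and macrophage markers to between 23.7 and 367 TPM, and the 20 markers of quiescent stellate cells that are not among the 38 genes to between 26.7 and 101 TPM. In such bulk libraries fewer cells of a type and less RNA per cell cannot be told apart.

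Fibronectin and collagen XVIII accounted for most of the matrix RNA in every library. Fn1, which encodes the fibronectin of plasma and matrix, had a mean of 674 TPM over the 12 libraries, and Col18a1, whose product is a basement membrane collagen that releases endostatin, had 424 TPM. Together they made between 83.3% and 94.5% of the summed TPM of the 38 genes. Next in order came Mmp14 (33.1 TPM), a membrane-bound collagenase, then Sparc (25.2 TPM), a collagen-binding glycoprotein, and the basement membrane collagens Col4a1 (16.0 TPM) and Col4a2 (12.6 TPM). No other member reached a mean of 10 TPM, 11 lay between 1 and 10 TPM, and 21 lay under 1 TPM.

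**Figure D1:**
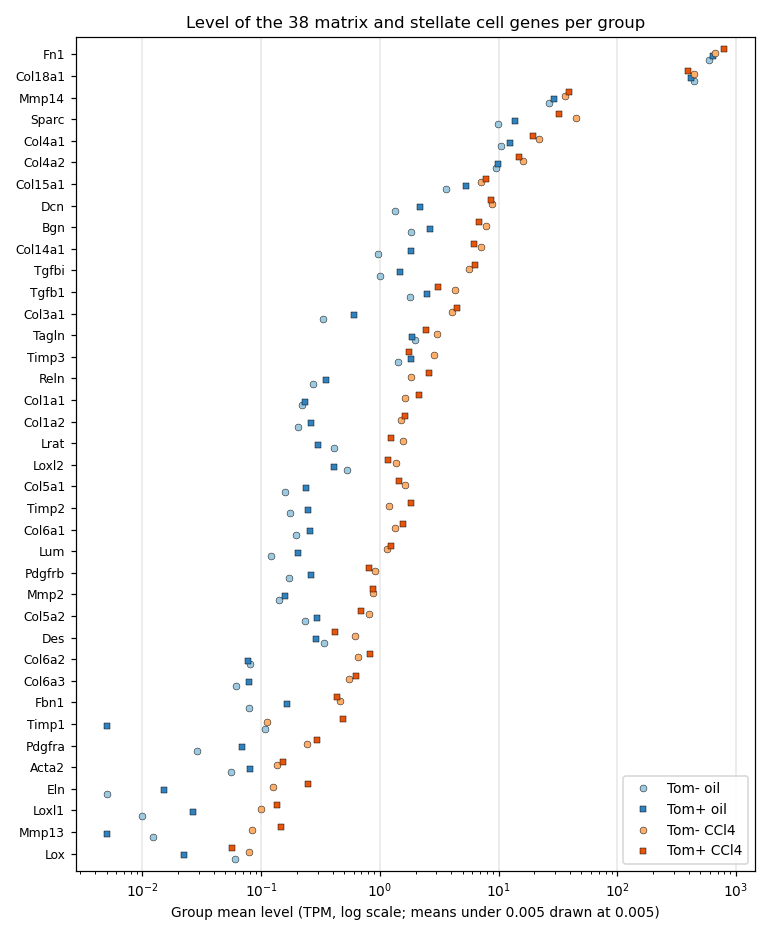
Group means (n = 3 libraries each) of the 38 genes in TPM on a log axis, ordered by the mean over all 12 libraries, with circles for Tom-, squares for Tom+, blue for oil and orange for CCl4. Fn1 and Col18a1 stand far above the other 36 genes with the 4 groups close together, and for most genes between 0.1 and 10 TPM the orange points lie to the right of the blue ones.

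The summed level of the 36 members without Fn1 and Col18a1 was 64.6, 64.5 and 94.7 TPM in Tom- oil replicates 1, 2 and 3, 89.1, 79.7 and 100 TPM in Tom+ oil, 181, 205 and 180 TPM in Tom- CCl4 and 139, 188 and 198 TPM in Tom+ CCl4. The oil and CCl4 libraries did not overlap in this sum. The 5 fibrillar collagens alone summed to between 0.531 and 2.21 TPM in oil and between 6.72 and 13.8 TPM in CCl4, far under a single hepatocyte transcript such as Hpx, with a mean of 9924 TPM over the 12 libraries. Acta2, which encodes the alpha smooth muscle actin that marks myofibroblasts, was close to the limit of detection, with at most 12 counts in any library.

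Promoters are shown for Col3a1, Reln and Lrat, a collagen and a pair of stellate cell genes that rose together after CCl4 in both fractions and whose window holds no annotated exon. The collagens Col5a1 and Col6a3 also met these conditions, and their windows are not printed. Col6a2 was left out because it is listed with more than 1 window, and these differ in exon overlap (226 and 0 bases). The sequences are from RefSeq on GRCm38.p6 (the assembly of mm10), where 25 of the 38 genes had an entry, and each gives the 250 bases before the transcription start, 5′ to 3′ on the strand of the gene. Capitals mark matches, on either strand, to the letters of the TATA box (TATAAA), the CCAAT box (the letters of its name), the GC box (GGGCGG) and the core of the SMAD element (CAGAC).
Col3a1 (chr1:45311288-45311537, + strand): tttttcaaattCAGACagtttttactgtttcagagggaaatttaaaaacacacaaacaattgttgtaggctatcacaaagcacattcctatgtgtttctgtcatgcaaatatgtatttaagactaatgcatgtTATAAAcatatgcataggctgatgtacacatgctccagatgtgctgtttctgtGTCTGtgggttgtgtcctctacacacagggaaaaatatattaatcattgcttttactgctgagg
Reln (chr5:22344706-22344955, - strand): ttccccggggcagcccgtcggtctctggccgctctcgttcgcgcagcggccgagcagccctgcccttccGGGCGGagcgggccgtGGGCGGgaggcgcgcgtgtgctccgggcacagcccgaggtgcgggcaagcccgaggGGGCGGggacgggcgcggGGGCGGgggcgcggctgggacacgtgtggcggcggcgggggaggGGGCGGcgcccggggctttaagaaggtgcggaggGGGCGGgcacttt
Lrat (chr3:82903975-82904224, - strand): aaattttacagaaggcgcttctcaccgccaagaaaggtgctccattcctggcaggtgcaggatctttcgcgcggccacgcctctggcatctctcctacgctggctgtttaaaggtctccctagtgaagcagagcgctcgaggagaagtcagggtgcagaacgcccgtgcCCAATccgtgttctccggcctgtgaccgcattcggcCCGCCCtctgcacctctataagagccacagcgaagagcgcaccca
The Col3a1 window held 1 TATA box and 2 SMAD element matches, the Reln window 6 GC box matches, and the Lrat window 1 CCAAT box and 1 GC box match, so no searched motif was shared by the 3 windows. Of the windows not printed, that of Col5a1 held 2 GC box matches and 1 SMAD element match, and that of Col6a3 2 SMAD element matches. Of the 27 windows of the 25 genes, 2 held a TATA box, 8 a CCAAT box, 17 a GC box and 11 a SMAD element. The shares among all 32851 promoters listed were 12.4%, 33.8%, 32.7% and 42.2% in the same order. A match is a string of letters and not a measured site.

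Most of the measurable matrix and stellate cell genes were called higher after CCl4 in Tom- cells and on sums of same-numbered libraries, and fewer in Tom+ cells. Of the 38 genes, 33 passed the expression filter in the 12-library fit, and Lox, Loxl1, Mmp13, Timp1 and Acta2 did not. In Tom- cells, CCl4 against oil was past both thresholds (Benjamini-Hochberg adjusted p under 0.05 over all genes tested and log2 fold change beyond 0.75) in the higher direction for 27 of the 33, against 6.33% of all 17121 genes tested, and in the lower direction for 0, against 1.59%. The tests were edgeR's quasi-likelihood tests, changes below are log2 fold changes in log2 units, and the value after ± is the standard error unless an SD is named. DESeq2 and limma-voom also called 0 members lower in each CCl4 against oil comparison, and in the edgeR fits without the block no member with a negative change in these comparisons had an unadjusted p under 0.05. In Tom+ cells 14 of the 33 were higher, against 2.90% of all genes, and 0 were lower, against 2.34%. On sums of same-numbered libraries 21 of 35 were higher, against 3.34%, and 0 lower, against 1.44%. The median log2 fold change of the tested members was 2.59 in Tom-, 1.62 in Tom+ and 1.88 on sums, while the median of all genes was within 0.0046 of 0.

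The filter could let a gene pass through its CCl4 libraries alone, so the counts were repeated on genes with at least 10 counts in 3 or more oil libraries. On that basis 26 of 32 members were higher in Tom- (5.91% of all such genes), 13 of 32 in Tom+ (2.61%) and 20 of 32 on sums (2.90%). In 20 of the 33 tested members every CCl4 library was above every oil library in CPM, as in 4.16% of the genes tested.

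Without the 2 oil libraries whose reporter went against the label, 25 of 35 members were higher in Tom-, against 4.32% of all 17525 genes then tested, and 11 of 35 in Tom+, against 2.09%. The 25 include Eln, which had 0 counts in the Tom- oil libraries left, so its call there rests on its CCl4 counts. The calls lost were Col4a1, Col4a2 and Timp2 in Tom- and Eln, Loxl2 and Timp2 in Tom+, and Col1a2 was gained in Tom-. Of the calls, 17 of 27 in Tom-, 6 of 14 in Tom+ and 4 of 21 on sums were kept when each library, or each same-numbered pair, was left out in turn. The 4 genes kept throughout all of these were Col3a1, Lum, Pdgfrb and Reln. The Tom+ count fell to 9 without Tom+ oil replicate 1, to 8 without Tom+ oil replicate 2 and to 8 without Tom+ CCl4 replicate 3, and the count on sums fell to 6 without oil pair 1 and to 10 without CCl4 pair 2 or CCl4 pair 3. A minimum of 10 counts in every library left 22 members to test, of which 17 were higher in Tom-, against 6.32% of all 14009 genes then tested, and 7 in Tom+, against 2.67%.

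**Figure D2:**
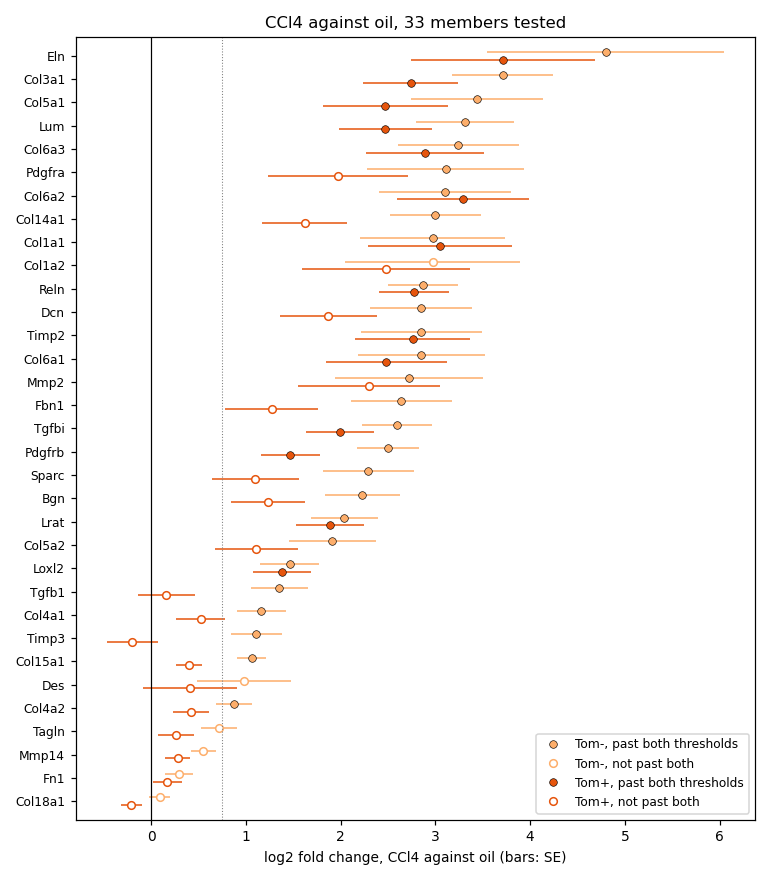
Log2 fold change, CCl4 against oil, with its standard error for the 33 tested members in Tom- (light) and Tom+ (dark), where filled points are past both thresholds and the dotted line is at 0.75. The Tom- points lie above 0 for all 33 genes shown, 27 of them filled, and the Tom+ points are filled for 14 genes, with Timp3 (-0.20) and Col18a1 (-0.21) below 0.

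The fibrillar collagens form the cross-striated fibres of scar tissue, with type I (Col1a1 and Col1a2) and type III (Col3a1) in bulk and type V (Col5a1 and Col5a2) nucleating the fibrils. Of the 5 genes, 4 rose in Tom-, 3 in Tom+ and 4 on sums. Col3a1 (ENSMUSG00000026043, chr1:45311538-45349706, + strand, mm10) was at 0.844, 0.504 and 2.74 CPM in Tom- oil replicates 1, 2 and 3, 3.0, 1.45 and 3.13 in Tom+ oil, 17.4, 18.6 and 18.0 in Tom- CCl4 and 11.8, 18.0 and 20.9 in Tom+ CCl4. It rose by 3.71 ± 0.53 log2 units (adjusted p = 0.00236) in Tom- and by 2.74 ± 0.50 log2 units (adjusted p = 0.00902) in Tom+, and no CCl4 library overlapped an oil library. Without the doubtful oil libraries the values were 3.48 ± 0.57 log2 units (adjusted p = 0.0112) and 2.47 ± 0.52 log2 units (adjusted p = 0.0367).

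Col1a1 (ENSMUSG00000001506, chr11:94936224-94953042, + strand, mm10), for the alpha 1 chain of type I collagen, was at 0.158, 0.368 and 1.29 CPM in Tom- oil, 0.982, 0.115 and 0.857 in Tom+ oil, 5.46, 4.37 and 4.71 in Tom- CCl4 and 2.63, 5.20 and 8.58 in Tom+ CCl4. The oil libraries were scattered between 0.115 and 1.29 CPM, and the lowest CCl4 library, at 2.63 CPM, was above all of them. The change was 2.97 ± 0.77 log2 units (adjusted p = 0.0274) in Tom- and 3.05 ± 0.76 log2 units (adjusted p = 0.0326) in Tom+. The Tom- call was lost without Tom- oil replicate 1 or 2 or any Tom- CCl4 library, and the Tom+ call without any library of either Tom+ group apart from Tom+ CCl4 replicate 1. Col1a2, its partner chain, was at 0.105, 0.620 and 2.45 CPM in Tom- oil, 2.38, 0.229 and 1.57 in Tom+ oil, 7.31, 8.57 and 9.63 in Tom- CCl4 and 4.20, 7.60 and 11.9 in Tom+ CCl4. The groups did not overlap here either, but the spread among oil libraries left the change short of the threshold, at 2.97 ± 0.92 log2 units (adjusted p = 0.0579) in Tom- and 2.48 ± 0.89 log2 units (adjusted p = 0.125) in Tom+. DESeq2 called the Tom- change.

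The minor type V collagens followed. Col5a1 was at 0.422, 0.233 and 1.06 CPM in Tom- oil, 1.42, 0.115 and 1.03 in Tom+ oil, 5.81, 7.38 and 5.66 in Tom- CCl4 and 3.47, 4.58 and 6.39 in Tom+ CCl4. Every CCl4 library was above every oil library, and the change was 3.44 ± 0.70 log2 units (adjusted p = 0.00934) in Tom- and 2.47 ± 0.66 log2 units (adjusted p = 0.0404) in Tom+. The Tom+ call of Col5a1 was lost in most of the fits that left out a library. For Col5a2 the levels were 1.45, 0.349 and 1.06 CPM in Tom- oil, 0.896, 1.36 and 1.37 in Tom+ oil, 3.03, 3.70 and 3.91 in Tom- CCl4 and 1.72, 1.79 and 4.28 in Tom+ CCl4. It rose in Tom- by 1.91 ± 0.46 log2 units (adjusted p = 0.0140), and in Tom+ the change was 1.11 ± 0.44 log2 units (adjusted p = 0.143).

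Among the other collagens, the network-forming type IV chains of basement membranes were the most abundant after Col18a1 by TPM and rose in Tom-. Col4a1 was at 24.9, 24.3 and 50.0 CPM in Tom- oil, 35.4, 36.3 and 46.9 in Tom+ oil, 70.5, 78.2 and 73.4 in Tom- CCl4 and 43.9, 61.3 and 64.2 in Tom+ CCl4. Tom- oil replicate 3 stood above the other Tom- oil libraries, and the CCl4 libraries overlapped the oil libraries in Tom+ but not in Tom-. Col4a2 was at 21.3, 22.0 and 36.2 CPM in Tom- oil, 25.1, 28.0 and 31.8 in Tom+ oil, 47.1, 52.9 and 45.0 in Tom- CCl4 and 30.5, 42.0 and 41.3 in Tom+ CCl4. Its groups were arranged like those of Col4a1, with no overlap in Tom- and overlap in Tom+. Col4a1 rose in Tom- by 1.16 ± 0.26 log2 units (adjusted p = 0.0144) and Col4a2 by 0.87 ± 0.19 log2 units (adjusted p = 0.0107). Both Tom- calls were lost without Tom- oil replicate 1, and that of Col4a2 also without Tom- oil replicate 2. Neither passed in Tom+, at 0.52 ± 0.26 log2 units (adjusted p = 0.254) and 0.42 ± 0.19 log2 units (adjusted p = 0.198). The 2 genes are neighbours in opposite orientation whose exons share 22 bases, and fractional counts stood in 4 libraries for Col4a1 and in 6 for Col4a2.

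The type VI chains, which form beaded filaments around cells, rose in both fractions from levels close to the limit of detection. Col6a1 was at 0.158, 0.271 and 0.654 CPM in Tom- oil, 0.679, 0.0763 and 0.686 in Tom+ oil, 1.90, 3.18 and 2.91 in Tom- CCl4 and 1.40, 2.64 and 4.07 in Tom+ CCl4. Col6a2 was at 0.105, 0.252 and 0.490 CPM in Tom- oil, 0.289, 0.0763 and 0.465 in Tom+ oil, 2.17, 2.76 and 2.53 in Tom- CCl4 and 0.739, 2.73 and 4.59 in Tom+ CCl4. Col6a3 was at 0.105, 0.116 and 0.695 CPM in Tom- oil, 0.231, 0.248 and 0.759 in Tom+ oil, 3.01, 2.99 and 2.91 in Tom- CCl4 and 1.83, 2.93 and 4.13 in Tom+ CCl4. No CCl4 library overlapped an oil library for any of the 3 chains. The changes in Tom- and Tom+ were 2.85 ± 0.67 log2 units (adjusted p = 0.0141) and 2.48 ± 0.64 log2 units (adjusted p = 0.0315) for Col6a1, 3.10 ± 0.70 log2 units (adjusted p = 0.0121) and 3.29 ± 0.70 log2 units (adjusted p = 0.0127) for Col6a2, and 3.24 ± 0.64 log2 units (adjusted p = 0.00603) and 2.89 ± 0.62 log2 units (adjusted p = 0.0125) for Col6a3. In Tom+ the 3 calls were lost without Tom+ oil replicate 1, and in Tom- those of Col6a1 and Col6a2 without Tom- oil replicate 2 and that of Col6a1 also without Tom- oil replicate 1.

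Col14a1, a fibril-associated collagen, was at 1.66, 2.73 and 4.09 CPM in Tom- oil, 4.20, 2.58 and 9.82 in Tom+ oil, 21.4, 26.1 and 21.0 in Tom- CCl4 and 12.2, 17.7 and 20.7 in Tom+ CCl4. Tom+ oil replicate 3 was the highest oil library but stayed under every CCl4 library. Col14a1 rose in Tom- by 3.0 ± 0.48 log2 units (adjusted p = 0.00401) and missed the threshold in Tom+ at 1.62 ± 0.45 log2 units (adjusted p = 0.0536). Col15a1, a basement membrane-associated collagen related to type XVIII, was at 9.63, 9.75 and 9.97 CPM in Tom- oil, 16.0, 13.4 and 13.7 in Tom+ oil, 23.3, 17.4 and 20.7 in Tom- CCl4 and 22.4, 19.6 and 15.0 in Tom+ CCl4. Its 3 Tom- oil libraries lay within a narrow range and under the Tom- CCl4 libraries, while the Tom+ groups overlapped, with 1.06 ± 0.15 log2 units (adjusted p = 7.2e-04) in Tom- and 0.40 ± 0.14 log2 units (adjusted p = 0.101) in Tom+. Col18a1 was the exception among the collagens: its mean was 1318 ± 91.1 CPM (SD, n = 3) in Tom- oil, 1247 ± 147 in Tom+ oil, 1405 ± 152 in Tom- CCl4 and 1080 ± 26.3 in Tom+ CCl4, and it changed by 0.09 ± 0.11 log2 units (adjusted p = 0.600) in Tom- and -0.21 ± 0.11 log2 units (adjusted p = 0.273) in Tom+.

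Of the 9 proteoglycans, glycoproteins and elastic fibre genes, 8 rose in Tom-, 4 in Tom+ and 7 on sums. Reln, which encodes the secreted glycoprotein reelin and is a stellate cell gene in liver, was among the most regular of all members. Reln (ENSMUSG00000042453, chr5:21884454-22344702, - strand, mm10) was at 2.11, 2.02 and 4.05 CPM in Tom- oil, 2.74, 2.52 and 5.44 in Tom+ oil, 14.0, 22.9 and 23.1 in Tom- CCl4 and 18.3, 25.0 and 29.0 in Tom+ CCl4. The 6 CCl4 libraries lay between 14.0 and 29.0 CPM and the 6 oil libraries between 2.02 and 5.44 CPM. Reln rose by 2.87 ± 0.37 log2 units (adjusted p = 0.00117) in Tom- and by 2.77 ± 0.37 log2 units (adjusted p = 0.00139) in Tom+, and by 2.73 ± 0.42 and 2.58 ± 0.42 log2 units without the doubtful oil libraries.

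The small leucine-rich proteoglycans, which bind collagen fibrils, came next. Lum (lumican) was at 0.0527, 0.116 and 0.204 CPM in Tom- oil, 0.144, 0.210 and 0.294 in Tom+ oil, 0.885, 1.94 and 1.06 in Tom- CCl4 and 0.862, 1.11 and 1.59 in Tom+ CCl4. Dcn (decorin) was at 2.61, 2.31 and 4.88 CPM in Tom- oil, 3.90, 2.71 and 9.77 in Tom+ oil, 19.7, 25.5 and 25.5 in Tom- CCl4 and 11.1, 19.8 and 28.3 in Tom+ CCl4. Bgn (biglycan) was at 3.53, 3.08 and 7.40 CPM in Tom- oil, 6.15, 4.45 and 10.2 in Tom+ oil, 18.2, 24.5 and 23.4 in Tom- CCl4 and 11.2, 15.7 and 21.6 in Tom+ CCl4. For all 3, the CCl4 libraries were above the oil libraries without overlap, and Tom+ oil replicate 3 was the highest oil library. Lum rose by 3.31 ± 0.52 log2 units (adjusted p = 0.00142) in Tom- and 2.47 ± 0.49 log2 units (adjusted p = 0.00675) in Tom+. Dcn and Bgn rose in Tom- by 2.85 ± 0.54 log2 units (adjusted p = 0.00818) and 2.23 ± 0.40 log2 units (adjusted p = 0.00580), whereas in Tom+ their changes of 1.87 ± 0.51 log2 units (adjusted p = 0.0510) and 1.23 ± 0.39 log2 units (adjusted p = 0.0788) missed the threshold.

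Sparc, second to Fn1 in the group by TPM, was at 13.8, 9.79 and 23.6 CPM in Tom- oil, 17.7, 13.3 and 36.3 in Tom+ oil, 59.1, 88.8 and 83.2 in Tom- CCl4 and 28.0, 56.8 and 59.6 in Tom+ CCl4. It rose in Tom- by 2.29 ± 0.48 log2 units (adjusted p = 0.0133), a call lost without Tom- oil replicate 1, and the Tom+ groups overlapped, with 1.10 ± 0.46 log2 units (adjusted p = 0.182). Tgfbi, a matrix protein induced by TGF-beta, was at 1.42, 1.22 and 2.19 CPM in Tom- oil, 1.98, 1.39 and 3.80 in Tom+ oil, 8.95, 9.98 and 10.2 in Tom- CCl4 and 6.66, 7.82 and 13.7 in Tom+ CCl4. No CCl4 library overlapped an oil library, and it rose by 2.59 ± 0.37 log2 units (adjusted p = 0.00132) in Tom- and 1.99 ± 0.36 log2 units (adjusted p = 0.00567) in Tom+. Fbn1, the fibrillin of microfibrils, was at 0.264, 0.252 and 0.695 CPM in Tom- oil, 0.607, 0.344 and 1.66 in Tom+ oil, 2.70, 2.13 and 2.83 in Tom- CCl4 and 1.66, 1.90 and 2.65 in Tom+ CCl4. It rose in Tom- by 2.64 ± 0.53 log2 units (adjusted p = 0.00580), and in Tom+, where oil replicate 3 met the lowest CCl4 library, the change was 1.27 ± 0.49 log2 units (adjusted p = 0.129). Fbn1 shares 20.1% of its exonic bases with a feature on the other strand, so its reads may include those of that feature.

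Elastin and fibronectin were the extremes of the group. Eln, the core of elastic fibres, had 2, 0 and 0 counts in the Tom- oil libraries and 16, 4 and 43 in Tom- CCl4, a ratio of 35.4 with a 95% counting interval from 9.41 to 299 (exact binomial). In Tom+ it had 8, 2 and 0 counts in oil and 30, 49 and 44 in CCl4, a ratio of 11.4 (6.01 to 24.4). Both intervals pool the libraries of a group and take counts as independent, which they are not here. They are therefore too narrow and leave out the spread between libraries. Eln was past the thresholds in both fractions (adjusted p = 0.0166 in Tom- and adjusted p = 0.0268 in Tom+), and both calls were lost in fits that left out a library, for example Tom- oil replicate 2 or Tom+ oil replicate 2. Fn1 was at 2456, 3044 and 3218 CPM in Tom- oil, 2904, 3536 and 3136 in Tom+ oil, 4352, 3347 and 2951 in Tom- CCl4 and 3906, 3566 and 3336 in Tom+ CCl4. The groups overlapped, and the changes of 0.29 ± 0.15 log2 units (adjusted p = 0.201) in Tom- and 0.17 ± 0.15 log2 units (adjusted p = 0.517) in Tom+ did not pass.

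**Figure D3:**
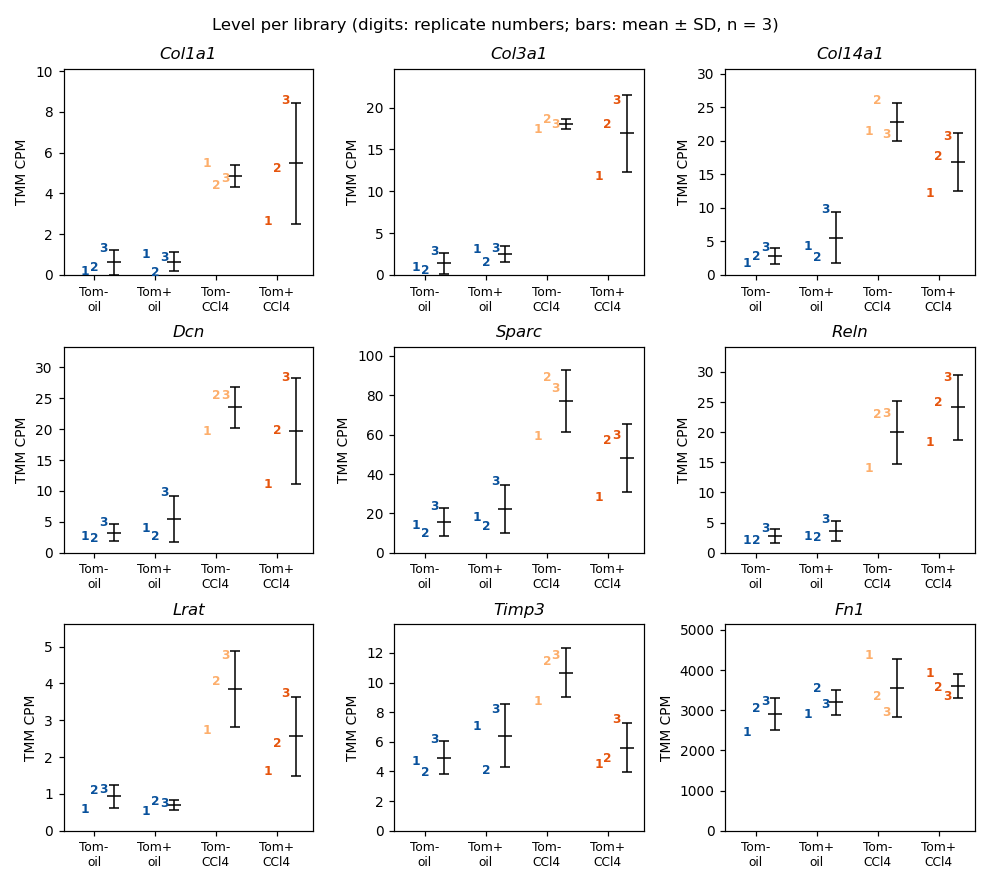
TMM-normalized CPM per library for 9 members, with digits for the replicate number and bars for the mean and SD of 3 libraries in each of the 4 groups. The CCl4 libraries lie above the oil libraries for Col1a1, Col3a1, Col14a1, Dcn, Reln and Lrat, overlap them for Sparc and Fn1, and for Timp3 are above oil in Tom- but not in Tom+.

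Of the crosslinking enzymes, which join collagen and elastin chains, only Loxl2 was expressed enough to test in the 12-library fit. Loxl2 was at 1.05, 0.969 and 1.61 CPM in Tom- oil, 1.10, 0.725 and 1.03 in Tom+ oil, 3.89, 3.32 and 2.85 in Tom- CCl4 and 1.90, 1.88 and 3.72 in Tom+ CCl4. Every CCl4 library was above every oil library, and it rose by 1.46 ± 0.31 log2 units (adjusted p = 0.00768) in Tom- and 1.38 ± 0.31 log2 units (adjusted p = 0.0148) in Tom+. Fractional counts for Loxl2 stood in 10 of the 12 libraries, so reads shared with other features could contribute. Lox had at most 18 counts and Loxl1 at most 16 counts in any library.

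Among proteases and inhibitors, Mmp2, a gelatinase, was at 0.158, 0.0775 and 0.368 CPM in Tom- oil, 0.433, 0 and 0.245 in Tom+ oil, 1.11, 1.82 and 1.10 in Tom- CCl4 and 0.935, 1.40 and 1.13 in Tom+ CCl4. It rose in Tom- by 2.72 ± 0.78 log2 units (adjusted p = 0.0311), a call lost without any of 4 of the 6 Tom- libraries, and in Tom+ its change was 2.30 ± 0.75 log2 units (adjusted p = 0.0739), although no CCl4 library overlapped an oil library. Mmp14, which activates Mmp2 at the cell surface, was the most abundant protease, with 67.8 ± 2.61 CPM (SD, n = 3) in Tom- oil, 74.7 ± 13.3 in Tom+ oil, 99.0 ± 15.7 in Tom- CCl4 and 90.9 ± 4.93 in Tom+ CCl4. Its change of 0.55 ± 0.13 log2 units (adjusted p = 0.0131) in Tom- passed the p threshold but not the fold threshold. Mmp13, the interstitial collagenase of rodents, had at most 13 counts in any library.

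The tissue inhibitors of metalloproteinases differed from each other. Timp1, a gene of activated stellate cells, had 0, 4 and 2 counts in Tom- oil, 0, 0 and 0 in Tom+ oil, 0, 2 and 4 in Tom- CCl4 and 0, 10 and 14 in Tom+ CCl4. It was thus at or near the limit of 3 counts except in Tom+ CCl4 replicates 2 and 3. In the fit without Tom+ CCl4 replicate 1, which had 0 counts, it passed the filter and was called higher in Tom+. That call rests on Tom+ CCl4 replicates 2 and 3 alone, with 0 counts in every Tom+ oil library. Timp2 was at 0.158, 0.174 and 0.531 CPM in Tom- oil, 0.520, 0.267 and 0.441 in Tom+ oil, 1.49, 2.32 and 2.56 in Tom- CCl4 and 1.11, 1.77 and 5.59 in Tom+ CCl4. It rose by 2.85 ± 0.64 log2 units (adjusted p = 0.0107) in Tom- and 2.76 ± 0.61 log2 units (adjusted p = 0.0141) in Tom+, where Tom+ CCl4 replicate 3 was far above the other Tom+ CCl4 libraries and the call was lost without it. Timp3, which stays bound to matrix, was at 4.69, 3.95 and 6.17 CPM in Tom- oil, 7.05, 4.05 and 8.15 in Tom+ oil, 8.75, 11.4 and 11.8 in Tom- CCl4 and 4.44, 4.85 and 7.49 in Tom+ CCl4. It rose in Tom- by 1.11 ± 0.27 log2 units (adjusted p = 0.0151), a call lost without Tom- oil replicate 1 or 2 or Tom- CCl4 replicate 2 or 3. In Tom+, where oil and CCl4 libraries overlapped, the value was -0.20 ± 0.27 log2 units (adjusted p = 0.705). The exons of Timp3 share 21.3% of their bases with Syn3 on the other strand, and 8 libraries held a fractional count for it.

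Of the 4 stellate cell and myofibroblast genes, Lrat rose and Des, Tagln and Acta2 were not past the thresholds. Lrat encodes the enzyme that esterifies retinol for storage in stellate cells. Lrat (ENSMUSG00000028003, chr3:82892579-82903973, - strand, mm10) was at 0.580, 1.09 and 1.12 CPM in Tom- oil, 0.534, 0.802 and 0.735 in Tom+ oil, 2.73, 4.06 and 4.75 in Tom- CCl4 and 1.60, 2.38 and 3.72 in Tom+ CCl4. No CCl4 library overlapped an oil library, and it rose by 2.04 ± 0.35 log2 units (adjusted p = 0.00260) in Tom- and 1.89 ± 0.36 log2 units (adjusted p = 0.00543) in Tom+, or by 1.80 ± 0.38 and 2.03 ± 0.40 log2 units without the doubtful oil libraries.

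Acta2 had 0, 0 and 6 counts in Tom- oil, 6, 0 and 4 in Tom+ oil, 5, 0 and 10 in Tom- CCl4 and 12, 2 and 6 in Tom+ CCl4. On sums, where it could be tested, its change was 1.04 ± 1.01 log2 units (adjusted p = 0.551), so a change in Acta2 was not detectable at this depth. Des (desmin), an intermediate filament protein of stellate cells, was at 0.527, 0.271 and 0.817 CPM in Tom- oil, 0.347, 0.534 and 0.514 in Tom+ oil, 0.834, 1.24 and 1.12 in Tom- CCl4 and 0.283, 0.546 and 1.04 in Tom+ CCl4. Its change was 0.98 ± 0.50 log2 units (adjusted p = 0.194) in Tom- and 0.41 ± 0.50 log2 units (adjusted p = 0.671) in Tom+. Tagln (transgelin) lay between 1.42 and 1.80 CPM in oil and between 1.76 and 2.93 CPM in CCl4, with 0.71 ± 0.19 log2 units (adjusted p = 0.0222) in Tom-, past the p threshold but under the fold threshold. Of the exonic bases of Tagln, 67.9% are shared with other features, Pcsk7 among them, so that this value cannot be assigned to Tagln alone.

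The receptors through which stellate cells respond to PDGF, and the ligand TGF-beta 1, completed the set. Pdgfrb, the beta receptor and a marker of stellate cells, was at 0.316, 0.349 and 0.531 CPM in Tom- oil, 0.693, 0.382 and 0.784 in Tom+ oil, 2.35, 2.1 and 2.41 in Tom- CCl4 and 1.37, 1.75 and 2.07 in Tom+ CCl4. No CCl4 library overlapped an oil library, and Pdgfrb rose by 2.50 ± 0.33 log2 units (adjusted p = 5.1e-04) in Tom- and 1.47 ± 0.31 log2 units (adjusted p = 0.0103) in Tom+. Pdgfra, the alpha receptor of fibroblasts and stellate cells, was at 0, 0.155 and 0.204 CPM in Tom- oil, 0.448, 0.0382 and 0.392 in Tom+ oil, 0.758, 1.33 and 1.23 in Tom- CCl4 and 0.615, 1.05 and 1.84 in Tom+ CCl4. It rose in Tom- by 3.11 ± 0.83 log2 units (adjusted p = 0.0224), a call lost without any of 4 of the 6 Tom- libraries, and its Tom+ change was 1.97 ± 0.74 log2 units (adjusted p = 0.120). Tgfb1 was at 4.98, 2.09 and 4.47 CPM in Tom- oil, 5.56, 3.63 and 6.95 in Tom+ oil, 9.96, 9.70 and 9.74 in Tom- CCl4 and 5.24, 5.04 and 7.79 in Tom+ CCl4. The 3 Tom- CCl4 libraries were tightly grouped near 10 CPM, above the Tom- oil libraries, with 1.35 ± 0.30 log2 units (adjusted p = 0.0108), while in Tom+ the groups overlapped, with 0.16 ± 0.30 log2 units (adjusted p = 0.787).

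Whether Tom+ cells differed from Tom- cells in these genes was asked within each treatment. In CCl4, 0 of the 33 members were past the thresholds, against 1.96% of all genes in either direction, and 4 members had an unadjusted p under 0.05, as had 3901 of all 17121 genes. The median log2 fold change, Tom+ against Tom-, was -0.26, with 8 of 33 members above 0, beside 0.0042 for all genes. Within each treatment, libraries of a number tended to deviate from their group means in the same direction, so the fit with a block for the replicate number is given beside this one. With the block, Timp3 was lower in Tom+ cells, its log2 fold change being -0.95 ± 0.15 log2 units (adjusted p = 9.7e-04), 1 of 33 members against 3.25% of all genes called lower in that fit, and without it the change was -0.94 ± 0.27 log2 units (adjusted p = 0.0578). DESeq2 and limma-voom also called Timp3 lower, with 0 other members, and its adjusted p ranged from 9.7e-04 to 0.193 over the alternatives. It was also called without Tom+ oil replicate 2 (-0.94), Tom+ oil replicate 3 (-0.93) or Tom+ CCl4 replicate 3 (-1.20). Timp3 was lower in Tom+ in 3 of 3 same-numbered pairs, at 4.44 against 8.75, 4.85 against 11.4 and 7.49 against 11.8 CPM.

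Further members came close to the fold threshold under the block. Sparc was lower in Tom+ by a log2 fold change of -0.73 ± 0.10 log2 units (adjusted p = 3.4e-04) and Tgfb1 by -0.73 ± 0.16 log2 units (adjusted p = 0.00842), both just short of 0.75. For Col1a1, Col3a1 and Reln the same fit gave 0.04 ± 0.58 log2 units (adjusted p = 0.978), -0.13 ± 0.23 log2 units (adjusted p = 0.747) and 0.28 ± 0.10 log2 units (adjusted p = 0.0668), and none of the 3 passed. Lrat was at -0.63 ± 0.21 log2 units (adjusted p = 0.0519).

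**Figure D4:**
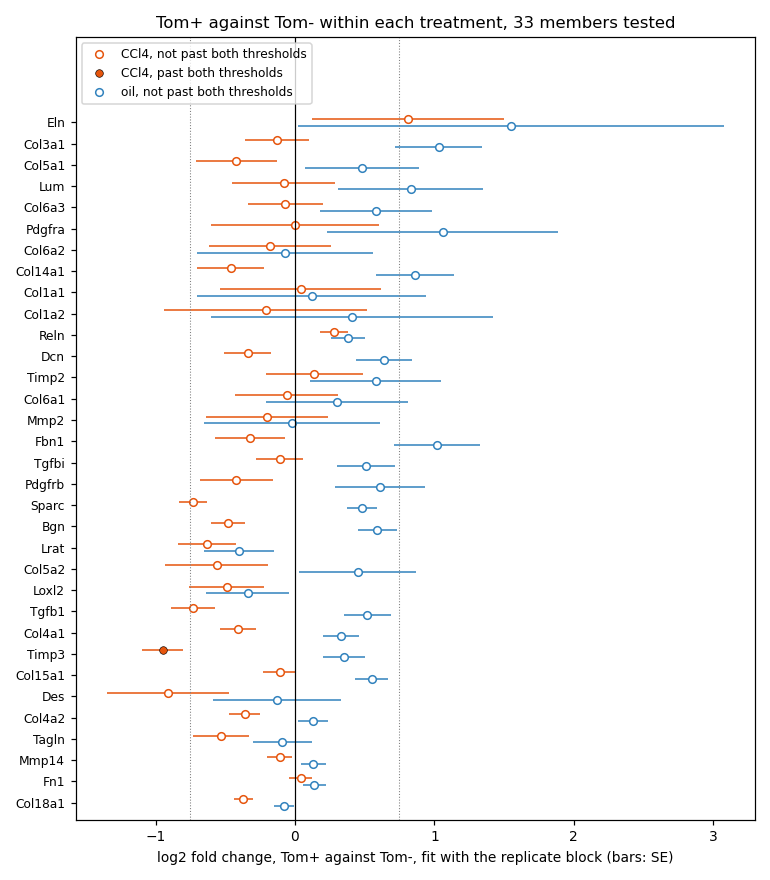
Log2 fold change, Tom+ against Tom-, with its standard error from the fit with the replicate block, in CCl4 (orange) and oil (blue) for the 33 tested members, with dotted lines at -0.75 and 0.75 and a filled point past both thresholds. Timp3 in CCl4 is the filled point, while 28 of the 33 orange points are below 0 and 26 of the 33 blue points above it.

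In oil, 0 of the 33 members passed in edgeR with or without the block, in DESeq2 or in limma-voom, and 0% of all 17121 genes passed in edgeR without the block, where 1198 had an unadjusted p under 0.05. DESeq2 called 6 genes higher and 11 lower, none of them a member. At an unadjusted p under 0.05 there was 1 member without the block and there were 12 with it, where 2512 of all 17121 genes were under it. The median was 0.38, with 27 of 33 above 0. Of the 6 oil libraries 2 have doubtful labels, and without them 0 of 35 members passed.

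The test of whether CCl4 acted differently in Tom+ and Tom- cells (the interaction) called 0 of 33 members, against 1.17% of all genes in either direction, with 4 members at an unadjusted p under 0.05, as were 3178 of all 17121 genes. DESeq2 called 1, Timp3, and limma-voom 0. Without Tom- oil replicate 3 Col4a1 was called (-1.07), and without Tom+ oil replicate 2 Timp3 (-1.55). Of the 33 members, 31 had a negative value, that is a lower change after CCl4 in Tom+ than in Tom-, and the median was -0.60 beside -0.0059 for all genes. With the replicate block 6 of 33 were past the thresholds, all lower, against 4.19% of all genes. These were Fbn1 at -1.34 ± 0.40 log2 units (adjusted p = 0.0415), Timp3 at -1.30 ± 0.21 log2 units (adjusted p = 0.00216), Tgfb1 at -1.24 ± 0.24 log2 units (adjusted p = 0.00496), Sparc at -1.21 ± 0.15 log2 units (adjusted p = 2.3e-04), Bgn at -1.07 ± 0.18 log2 units (adjusted p = 0.00285) and Dcn at -0.98 ± 0.26 log2 units (adjusted p = 0.0300). Sparc binds collagen, Fbn1 builds microfibrils, Bgn and Dcn coat collagen fibrils, Timp3 inhibits proteases in the matrix and Tgfb1 is the profibrotic cytokine.

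Some of these calls changed with the oil libraries used. With the block and without the doubtful libraries, a fit chosen after seeing the data in which the oil difference rests on replicate 3 alone, 4 of 35 members were lower, against 1.78% of all genes. They were Col14a1 at -1.72 ± 0.29 log2 units (adjusted p = 0.00477), Tgfb1 at -1.36 ± 0.31 log2 units (adjusted p = 0.0298), Sparc at -1.35 ± 0.20 log2 units (adjusted p = 0.00263) and Timp3 at -1.35 ± 0.28 log2 units (adjusted p = 0.0196). Bgn, Dcn and Fbn1 were then at -0.94 ± 0.25 log2 units (adjusted p = 0.0564), -1.33 ± 0.35 log2 units (adjusted p = 0.0671) and -1.58 ± 0.52 log2 units (adjusted p = 0.121). Without a block and without those libraries, 0 of 35 passed.

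Other matrix and signalling genes, 184 in 7 lists of which 136 were tested, were examined beside the 38 members, and were likewise chosen with earlier results known. In Tom-, 39 of the 136 were higher and 2 lower, beside 6.33% and 1.59% of all genes tested, and in Tom+, 21 were higher and 2 lower, beside 2.90% and 2.34%. Their medians were 0.78 and 0.30. The counts of calls and the all-gene shares were not restricted here to genes with counts in oil. They include genes with almost no oil counts, such as Fkbp10 and Mmp9 in Tom-. Of 15 tested basement membrane genes, 9 rose and 1 fell in Tom-, and 4 rose and 1 fell in Tom+. Lama2, a laminin chain of mesenchymal basement membranes, rose by 3.94 ± 0.61 log2 units (adjusted p = 0.00131) in Tom- and 2.86 ± 0.59 log2 units (adjusted p = 0.00810) in Tom+, whereas Lama3, an epithelial laminin chain, fell, at -1.42 ± 0.26 log2 units (adjusted p = 0.00340) and -1.65 ± 0.26 log2 units (adjusted p = 0.00167). Lama2 was at 0.0527, 0.0775 and 0.123 CPM in Tom- oil, close to or under the limit of 3 counts, so its fold there is uncertain. Of 24 collagen processing genes, 6 rose in Tom- and 4 in Tom+. Fkbp10, a chaperone of procollagen in the endoplasmic reticulum, was past the thresholds in both, at 0, 0 and 0.0204 CPM in Tom- oil, 0.0144, 0 and 0.0490 in Tom+ oil, 0.152, 0.663 and 0.338 in Tom- CCl4 and 0.308, 0.458 and 0.501 in Tom+ CCl4. Every oil library was under the limit of 3 counts, so no fold is given.

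Of 29 other matrix glycoproteins, 11 rose in Tom- and 5 in Tom+. Postn (periostin), a matrix protein of activated fibroblasts, changed by 4.09 ± 0.63 log2 units (adjusted p = 0.00137) in Tom- and 2.47 ± 0.57 log2 units (adjusted p = 0.0155) in Tom+, Fbln5, an elastic fibre protein, by 3.43 ± 0.72 log2 units (adjusted p = 0.00678) and 2.82 ± 0.68 log2 units (adjusted p = 0.0186), and Thbs1, an activator of latent TGF-beta, by 2.40 ± 0.78 log2 units (adjusted p = 0.0494) and 3.50 ± 0.77 log2 units (adjusted p = 0.0121). In Tom- oil Postn was at 0.158, 0 and 0.204 CPM, Fbln5 at 0.0527, 0.0388 and 0.163, and Thbs1 at 0.105, 0 and 0.286. Some of these values are close to or under the limit of 3 counts, so the folds are uncertain. The Tom+ calls of these genes, and the Tom- call of Thbs1, were each lost under at least 1 alternative. Of 14 other collagens, 3 rose in each fraction, led in Tom- by Col16a1 at 3.50 ± 0.47 log2 units (adjusted p = 9.0e-04). Of 26 other proteases and inhibitors, 6 rose and 1 fell in Tom-, and 1 rose and 1 fell in Tom+. Mmp9, a gelatinase of myeloid cells, was past the thresholds in Tom-, at 0, 0 and 0.0409 CPM in oil and 0.253, 0.276 and 0.887 in CCl4, with too few oil counts for a fold. Serpine2, a serine protease inhibitor, fell in both fractions, at -1.09 ± 0.28 log2 units (adjusted p = 0.0206) and -1.40 ± 0.28 log2 units (adjusted p = 0.00817).

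Of 25 tested TGF-beta pathway genes, 5 rose in Tom- and 4 in Tom+, and of 6 PDGF pathway genes 0 rose in Tom- and 1 in Tom+. In CCl4, 6 of the 136 genes were lower in Tom+ than in Tom- and 0 higher, beside 298 lower (1.74%) and 38 higher of all 17121 genes. With the replicate block 11 were lower and 1 higher, beside 556 (3.25%) and 126. The 5 with the largest decrease were Col5a3 at -1.37 ± 0.26 log2 units (adjusted p = 0.0167), Ltbp4 at -1.06 ± 0.25 log2 units (adjusted p = 0.0330), Lama4 at -0.90 ± 0.22 log2 units (adjusted p = 0.0317), Tgfbr3 at -0.80 ± 0.18 log2 units (adjusted p = 0.0203) and Eng at -0.80 ± 0.17 log2 units (adjusted p = 0.0210). Each of these 5 calls was lost under at least 1 alternative. Col5a3 was at 38.4, 81.9 and 87.5 CPM in Tom- CCl4 replicates 1, 2 and 3, beside 39.1, 45.8 and 42.6 in Tom- oil. Ltbp4 binds latent TGF-beta, Tgfbr3 and Eng are co-receptors of the TGF-beta family, Lama4 is a laminin chain of vascular basement membranes, and Col5a3 a minor fibrillar collagen. Eng is also on the list of endothelial markers. The interaction was lower for 5 of the 136 genes and higher for 0, beside 164 (0.958%) and 37 of all 17121 genes, and with the block for 12 and 2, beside 718 (4.19%) and 220.

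Markers of some other liver cells also rose after CCl4. Of all genes tested, 6.33% were called higher in Tom-, 2.90% in Tom+ and 3.34% on sums, and 1.59%, 2.34% and 1.44% lower. Of 18 tested quiescent stellate cell markers that are not members, 13 rose in Tom-, 2 in Tom+ and 10 on sums, and 0 fell. Their sum was 26.7 to 38.3 TPM in Tom- oil, 30.1 to 51.4 in Tom+ oil, 76.7 to 101 in Tom- CCl4 and 62.6 to 97.5 in Tom+ CCl4, with Angptl6 and Ecm1 among the most abundant. The 20 activated stellate cell and fibroblast markers summed to 4.60 to 6.94 TPM in oil and 10.4 to 15.7 TPM in CCl4, led by Pcolce, Ccn2 and Loxl3, with Cnn1 at 0 in every library. Of 11 tested, 5 rose in Tom- and 4 in Tom+.

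Of 15 endothelial markers, 15 rose in Tom- (6.33% of all genes) and 0 in Tom+ (2.90%). In CCl4, 7 of the 15 endothelial markers were lower in Tom+ than in Tom- (1.74% of all genes). Their sum was 73.6 to 113 TPM in Tom- oil, 79.0 to 132 in Tom+ oil, 178 to 203 in Tom- CCl4 and 115 to 144 in Tom+ CCl4, led by Clec4g, Eng and Oit3. The interaction was lower for 3 of 15 endothelial markers, 0 of 16 Kupffer cell and macrophage markers and 1 of 18 quiescent stellate cell markers, beside 0.958% of all genes. With the replicate block these counts were 15, 5 and 5, beside 4.19%. The Kupffer cell and macrophage sum, led by Lyz2, Cd5l and C1qb, was 23.7 to 146 TPM in Tom- oil, 43.2 to 202 in Tom+ oil, 178 to 207 in Tom- CCl4 and 125 to 367 in Tom+ CCl4. It was highest within each oil group in replicate 3, as were the endothelial, quiescent stellate and activated stellate sums. Dcn, Bgn, Sparc, Fbn1 and Timp3 were among the members highest there too, while Tgfb1 in Tom- oil was highest in replicate 1. Of the 16 Kupffer cell and macrophage markers, 1 rose in Tom- and 2 in Tom+, beside 6.33% and 2.90% of all genes. The hepatocyte markers had 0 calls in Tom-, and 2 of 18 fell in Tom+, beside 2.34% of all genes.

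Other markers were at trace levels. The 13 lymphocyte and neutrophil markers summed to at most 3.49 TPM, led by S100a9, Ptprc and S100a8, with Mpo at 0 in every library. The 7 mesothelial markers summed to at most 0.0113 TPM in oil and to between 0.0722 and 2.26 TPM in CCl4. The 10 markers of vascular smooth muscle and pericytes, led by Mylk, Mcam and Rgs5, summed to 17.9 to 25.0 TPM in oil and 27.6 to 31.9 TPM in CCl4, and the 11 cholangiocyte markers, with Spp1 and Pkhd1 among the most abundant, to 17.7 to 37.1 TPM. In Tom-, CCl4 against oil was higher for 5 of 8 tested vascular smooth muscle markers, 0 of 5 cholangiocyte, 0 of 2 lymphocyte and neutrophil and 0 of 1 mesothelial markers, beside 6.33% of all genes. In Tom+ these counts were 1, 1, 0 and 0, beside 2.90%. The contribution of any of these cells to the members' changes was not tested.

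**Figure D5:**
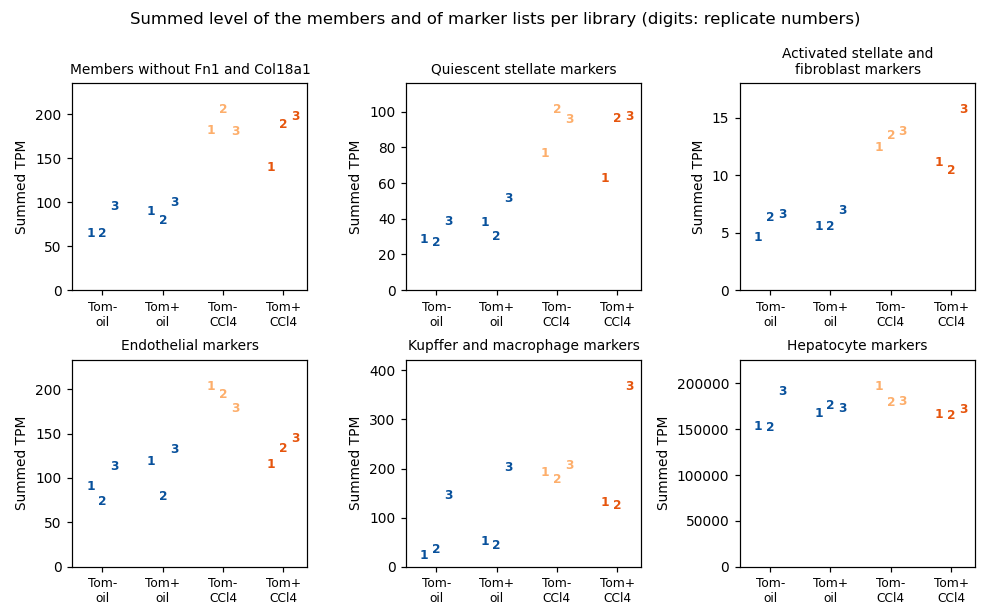
Summed TPM per library, with digits for the replicate number, of the 36 members without Fn1 and Col18a1 and of 5 marker lists in the 4 groups. The members, the quiescent stellate markers and the activated stellate and fibroblast markers are higher in every CCl4 library than in every oil library, the endothelial markers are highest in Tom- CCl4, and the hepatocyte markers stay between 152131 and 196643 TPM.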

How the data were processed

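Poly(A)-enriched, strand-specific libraries of sorted Tom- and Tom+ hepatocytes (4 groups of 3) were sequenced. Per the labels, reads were processed with fastp 0.23.2 and HISAT2 2.1.0 on mm10, and DESeq2 1.42.1 was used. The counting program, its strand setting and its annotation are not given in the sources used here. The authors deposited 1 table of estimated counts per gene, of which 30.4% to 32.9% of the nonzero values per library are not whole, with gene lengths; these counts were rounded. All 12 sample columns were used. Symbols were matched for 54723 of 54839 features (99.8%).

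Groups were taken from the sample labels. TMM-scaled CPM describe a gene across libraries, and TPM, from rounded counts and the deposited lengths, compare genes. Total counts were 37568584 to 75331424, median 47910752.5, and intervals cover counting error only. One edgeR 4.0.16 quasi-likelihood fit of the 12 libraries (R 4.3.3, default expression filter, robust) gave 5 contrasts, and a second fit the sums of same-numbered libraries. Calls needed a Benjamini-Hochberg adjusted p under 0.05 over all genes tested and a log2 fold change beyond 0.75. Errors beside log2 fold changes are standard errors. Whether replicate numbers pair samples was checked by correlating deviations from group means over 8561 genes: same-numbered Tom- and Tom+ libraries correlated at 0.348 to 0.549 in oil and 0.504 to 0.707 in CCl4, and differently numbered ones at -0.542 to -0.0752. Alternatives were RLE scaling, DESeq2 1.42.0, limma-voom (limma 3.58.1), other count filters, a replicate block, leaving out libraries and fits of 6 libraries. The fits were tested on simulated data. Figures were drawn with matplotlib 3.10.9.

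All 38 members are named. Values per library are given for those past both thresholds in any contrast and for Col1a1, Col1a2, Col3a1, Acta2, Des, Lrat, Reln, Timp1, Fn1 and Pdgfrb. Other genes are named from the pathway lists (at most 5 per contrast and direction, by size) and marker lists (the top 3 by TPM and those at 0), except for a few markers that are not reported here. The members and lists were chosen with earlier results of these data known.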

Additional observations from a re-analysis of the deposited data

Results flagged for a closer look

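For 6 members the change after CCl4 differed between Tom+ and Tom- cells in the edgeR fit with the replicate block, each lower in Tom+: Fbn1 (interaction -1.34 on the log2 scale), Timp3 (-1.30), Tgfb1 (-1.24), Sparc (-1.21), Bgn (-1.07) and Dcn (-0.98). Of all genes, 4.19% were called lower in that fit. In edgeR without the block and with all 12 libraries none of the 6 passed, while DESeq2 called Timp3. Endothelial markers moved the same way, with 15 of 15 lower in that blocked fit, and their contribution to the values was not tested. With the block and without the doubtful oil libraries, Bgn, Dcn and Fbn1 were not called. In oil the reporter separated Tom- from Tom+ in replicate 3 (143 and 1225 CPM). It did not do so in replicate 1 (1794 and 1546 CPM) or replicate 2 (157 and 135 CPM).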

How the results depend on the processing

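No member changed direction among called values under any alternative. Over results for single genes, 1247 alternative values kept their side of the thresholds, 138 lost a call and 62 gained one. Leaving out each library in turn gave 19 to 28 members higher after CCl4 in Tom-, 8 to 16 in Tom+ and 6 to 22 on sums, and 0 to 1 called for Tom+ against Tom- in CCl4, 0 to 0 in oil and 0 to 1 for the interaction. With at least 10 counts in every library, 17 members were higher in Tom- and 7 in Tom+, since 22 members were then tested. For Tom+ against Tom- in CCl4, where 0 members were called, 1 (Timp3) was called by DESeq2, by limma-voom, with at least 10 counts in every library, with the replicate block and with the 6 libraries of the contrast alone. For the interaction, 1 was called by DESeq2, 6 with the replicate block, and 4 with the block and without both doubtful oil libraries. The cause of these shifts was not tested. Across treatments same-numbered libraries correlated at 0.00901 to 0.304 and differently numbered ones at -0.277 to 0.142. For the sums these ranges were 0.0562 to 0.248 and -0.217 to 0.0384. What a replicate number shares across treatments is not given in the labels and was not tested. With the block, 28 members were higher in Tom-, beside 1366 of all 17121 genes, and 18 in Tom+, beside 645. On sums 20 were higher, beside 825 of 17743 genes. Without the block the all-gene counts were 1083, 497 and 592. Over all genes the block raised the calls from 38 higher and 298 lower to 126 and 556 for Tom+ against Tom- in CCl4, from 0 and 0 to 11 and 29 in oil, and from 37 and 164 to 220 and 718 for the interaction. Genes under about 10 counts, Acta2 and Timp1 among them, are limited by depth.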
